A study of Mus musculus with 4 samples.

Results

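Cd38 and Nadk, 2 of the 383 genes of a MERFISH panel, act on the coenzyme NAD and were followed here across the cell classes and regions of the mouse striatum and its surroundings. They were chosen by name, with their levels by cell class and the fall of Cd38 with age in astrocytes and vascular cells already known, so these values are given below as a description. MERFISH images single mRNA molecules in tissue and reads their identity from a code of repeated staining rounds. It was applied to 4 coronal 10 µm sections holding the striatum of both hemispheres, 2 from young mice (Young 1 and Young 2, 2 months) and 2 from aged mice (Aged 1 and Aged 2, 18 months). The methods name wild-type C57BL/6NTac mice, with no transgene and no treatment; the sex of a section is not given. The methods call all replicates of the study biological, but the labels do not tie each section to a mouse of its own. The p-values therefore measure the spread between sections, pooled over genes, and this spread may in part be technical.

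NAD carries electrons in energy metabolism and is also consumed by enzymes that split it. Cd38 is one of these: it sits largely on the cell surface, cleaves NAD to nicotinamide and ADP-ribose or cyclic ADP-ribose, and is known as a marker of activated immune cells. Nadk is the cytosolic kinase that adds a phosphate to NAD and so makes NADP, the precursor of the NADPH used against oxidative stress and in lipid synthesis. Cd38 (ENSMUSG00000029084.5) lies on the plus strand of chromosome 5 (43868553 to 43912375, GRCm38, GENCODE) and starts 24566 bp after the end of Bst1, which encodes a related NAD-cleaving enzyme and was also on the panel. Nadk (ENSMUSG00000029063.16) lies on the plus strand of chromosome 4 (155562378 to 155591001). Both are protein-coding.

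Segmentation gave 320663 cells, of which 281824 passed the filters on detected genes and volume, and these held 21717 Cd38 and 191804 Nadk transcripts. The 4 sections differed in depth: the median cell held 400 and 325 transcripts in Young 1 and Young 2 but 215 and 293 in Aged 1 and Aged 2. Levels are therefore given as transcripts of a gene per 10000 transcripts of all genes, after adding up all cells of a class in one section. Cells were clustered without Cd38, Nadk and the other 12 NAD genes, and the clusters were named from marker lists as 7 classes. Cells that carried at least 3 markers of another class beside 3 of their own were called mixed and left out (46.2%), which left 151504 cells. These cells held 7799 of the Cd38 and 66561 of the Nadk transcripts, so most transcripts of both genes lay in mixed cells. The naming of the classes rests on these rebuilt clusters, and vascular-like cells still held astrocyte markers at 963 to 1033 per 10000, against 2779 to 2902 in astrocyte-like cells. All 7 astrocyte markers were detected in both, but also in every other class once its cells were added up.

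The Cd38 level was highest in astrocyte-like and vascular-like cells. In astrocyte-like cells, the Cd38 level was 17.3 and 18.8 per 10000 in Young 1 and Young 2 and 10.1 and 11.6 in Aged 1 and Aged 2. In vascular-like cells it was 8.56 and 6.75 in the young and 4.42 and 4.80 in the aged sections. In every section the astrocyte-like level was the higher of the 2, by 2.02-fold in Young 1, 2.79-fold in Young 2, 2.28-fold in Aged 1 and 2.41-fold in Aged 2. Astrocyte-like cells made up 9.58% to 11.7% of all kept cells and held between 30.9% and 36.5% of all Cd38 transcripts, and vascular-like cells held between 23.1% and 27.8%. These shares include mixed cells. In vascular-like cells without the mixed ones, many of the Cd38 transcripts lay in subclusters that also held astrocyte transcripts, as described below.

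The other 5 classes had low Cd38 levels. Neuron-like cells, at 28.6% to 32.6% of kept cells, still held 19.6% to 23.4% of all Cd38 transcripts, mixed cells included. In Aged 2 this was slightly above the vascular-like share (23.4% against 23.1%). None of the other low classes held more than 11.7%. The level was 0.864 to 1.56 in oligodendrocyte precursor-like cells, 0.675 to 0.878 in microglia-like cells, 0.608 to 0.719 in neuron-like cells, 0.361 to 0.412 in medium spiny neuron-like cells and 0.301 to 0.361 in oligodendrocyte-like cells. Precursor-like and microglia-like cells overlapped in this order, as did microglia-like and neuron-like cells, and the lowest medium spiny neuron-like and the highest oligodendrocyte-like section were both at 0.361. As a measure of the background of the assay, 8 panel genes not usually transcribed in adult brain (Myh8, Mmp3, Mmp13, Cxcl3, Il6, Ly6d, Cdkn2a and Tnf) had a mean level of 0.373 to 1.09 per gene across the classes and sections. Set against these genes in the same class and section, Cd38 was lower in every section of medium spiny neuron-like and oligodendrocyte-like cells, where it was thus not detectable above them. These genes are not a fixed floor. Ly6d (log2 −1.95, edgeR adjusted p = 0.000485) and Tnf (−1.31, edgeR adjusted p = 0.00196) were called lower with age in oligodendrocyte-like cells. There the mean of the 8 genes was 1.09 and 0.915 in the young and 0.650 and 0.544 in the aged sections. It also fell in astrocyte-like cells, as given below, and overlapped between the ages in the remaining classes. In microglia-like cells it was above them in 3 of 4 sections (0.833, 0.878 and 0.725 against 0.625, 0.478 and 0.373) and below in Aged 2 (0.675 against 0.769). In neuron-like cells it was also above them in 3 of 4 sections, at 0.709, 0.608 and 0.719 against 0.577, 0.597 and 0.621, and below in Young 1 (0.680 against 1.002). The highest level in microglia-like cells was near the midline of the young sections, at 2.23 and 2.65, but from only 4 and 5 transcripts. Astrocyte transcripts were present in these classes too. Per 100 astrocyte-marker transcripts, Cd38 gave 0.362 to 0.673 in astrocyte-like cells, 0.204 to 0.540 in precursor-like cells, 0.362 to 0.741 in microglia-like cells and 0.416 to 0.539 in oligodendrocyte-like cells. In neuron-like cells it gave 0.844 to 1.34 and in medium spiny neuron-like cells 0.812 to 1.23, above every section of astrocyte-like cells.

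Nadk was found in every class and differed much less between them. Its level was highest in astrocyte-like cells, at 29.5 and 37.3 per 10000 in the young and 35.2 and 34.7 in the aged sections. Oligodendrocyte precursor-like cells came next with 18.5 and 23.2 in the young and 20.03 and 23.7 in the aged sections, so that no section of this class reached the astrocyte-like range. The astrocyte-like level was 1.47 to 1.76 times that of precursor-like cells within the sections. Vascular-like cells had 17.5 to 21.5, microglia-like cells 15.8 to 21.0, oligodendrocyte-like cells 15.7 to 19.6 and neuron-like cells 14.9 to 17.4, and each of these classes overlapped with the next in the order. Medium spiny neuron-like cells, the projection neurons of the striatum, were lowest, with 12.02 to 13.9, below every section of neuron-like cells. The share of astrocyte-like cells with at least 1 Nadk transcript was 29.98% to 34.5%.

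**Figure D1:**
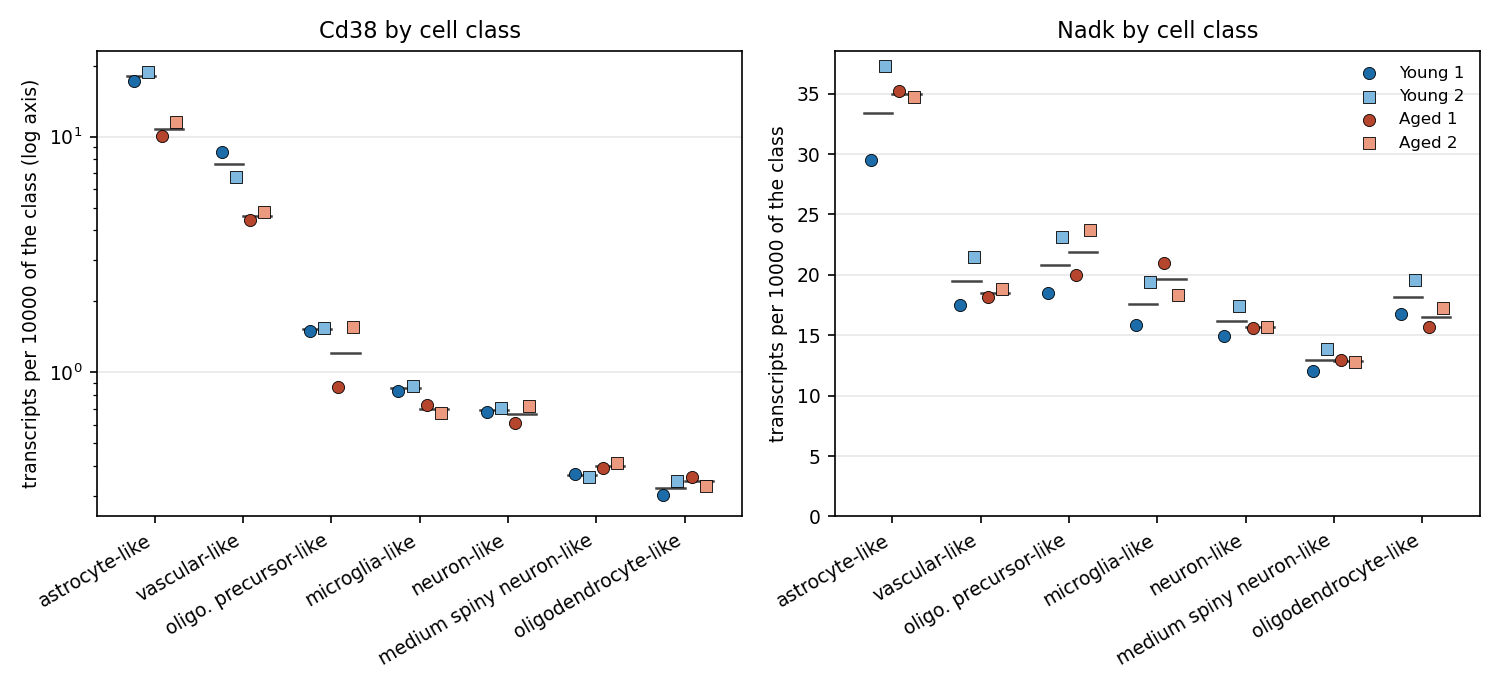
Level of Cd38 (left, log axis) and Nadk (right, linear axis) in transcripts per 10000 transcripts of all genes, by cell class; each point is a section and each bar the mean of the 2 sections of an age. Cd38 spans from 0.301 to 18.8 with astrocyte-like and vascular-like cells above all other classes, while Nadk spans from 12.02 to 37.3.

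The vascular-like class was split into 7 subclusters, again without the NAD genes. An endothelial-like, a pericyte-like and a smooth muscle-like subcluster could be named from markers, and the other 4 are called by their leading genes (Cd74, Penk, Elavl2 and Thbs4). In endothelial-like cells, which line the vessels, the Cd38 level was 9.16 and 7.60 in the young and 4.48 and 4.47 in the aged sections, a young mean of 8.38 ± 1.1 against 4.48 ± 0.0044 (SD, n = 2 each) and a 1.87-fold difference. Pericyte-like cells had 3.45 and 2.94 in the young and 3.27 and 1.95 in the aged sections, and smooth muscle-like cells had 4.34 and 2.26 in the young and 3.59 and 2.59 in the aged sections. In both of these mural groups, which rest on 14 to 26 Cd38 transcripts per section, the ages overlapped and every section was below the endothelial-like level of the same section. The highest levels were in the subcluster led by Thbs4, with 20.1 and 14.0 in the young and 8.09 and 10.8 in the aged sections. The subcluster led by Cd74 had 11.3 and 8.29 in the young and 5.38 and 7.22 in the aged sections, and the one led by Elavl2 was the only one with both aged sections higher (1.65 and 1.66 against 0.779 and 1.32, from 3 to 13 transcripts). The astrocyte water channel gene Aqp4 stood at 156 to 212 per 10000 in the subcluster led by Thbs4 and at 132 to 212 in the one led by Cd74, but at only 7.07 to 12.5 in endothelial-like cells. The subcluster led by Cd74 held 248, 206, 93 and 166 Cd38 transcripts in Young 1, Young 2, Aged 1 and Aged 2. The one led by Thbs4 held 47, 38, 25 and 28, and endothelial-like cells 219, 210, 102 and 117. The Cd38 values of the whole vascular-like class therefore rest in large part on these Aqp4-rich subclusters.

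Endothelial-like cells could be divided further by how many astrocyte markers they carried. Those with none had a Cd38 level of 10.8 and 7.33 in the young and 5.03 and 6.89 in the aged sections, from 40, 33, 16 and 31 transcripts. With 1 marker it was 9.04 and 9.33 in the young and 4.33 and 3.81 in the aged sections, and with 2 or more it was 8.72 and 6.45 in the young and 4.44 and 4.09 in the aged sections. The aged sections were below the young ones in each of the 3 divisions, and Cd38 was also present in the cells without astrocyte markers, at a level above both other divisions in Young 1, Aged 1 and Aged 2 and between them in Young 2. Over the whole vascular-like class, however, the cells without astrocyte markers had 12.3 and 6.64 in the young and 5.44 and 7.02 in the aged sections, so that the ages overlapped there. The share of all genes lower in both aged sections was not counted in the endothelial-like subcluster or its divisions. It was 22.7% in all vascular-like cells.

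**Figure D2:**
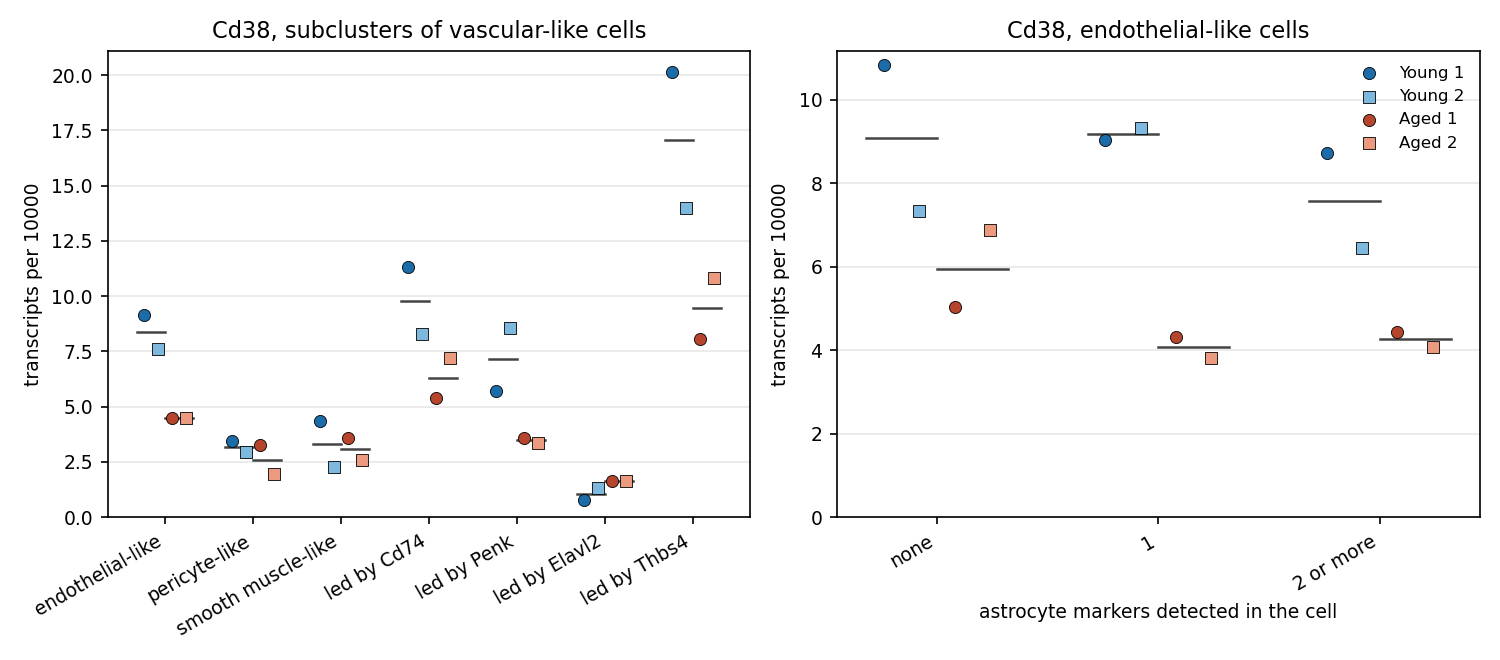
Level of Cd38 per 10000 transcripts in the subclusters of vascular-like cells (left) and in endothelial-like cells by the number of astrocyte markers they carried (right); each point is a section and each bar the mean of an age. Aged sections lie below young ones in the endothelial-like subcluster (4.47 and 4.48 against 7.60 and 9.16) and overlap in the pericyte-like and smooth muscle-like subclusters.

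For Nadk the subclusters were closer together. The level was 13.4 to 16.7 in endothelial-like cells, 15.2 to 20.3 in pericyte-like cells and 13.5 to 21.1 in smooth muscle-like cells. It was higher in the subclusters that held Aqp4, with 22.4 to 27.4 in the one led by Cd74 and 26.8 to 31.7 in the one led by Thbs4.

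The distribution over the section differed between the genes. In young astrocyte-like cells, the Cd38 level was highest near the midline (within 700 µm), with 24.6 and 28.6. White matter had 10.2 and 14.7, the lowest zone in Young 1 but not in Young 2. The dorsal striatum had 18.1 and 19.4 and the ventral striatum 14.5 and 14.1, a ratio of 1.25 in Young 1 and 1.38 in Young 2. The order was turned in Aged 1, at 0.654, and kept in Aged 2, at 1.19. The striatum as a whole stood below the rest of the section in all 4, at 0.926 and 0.868 of it in the young and 0.633 and 0.501 in the aged sections. In vascular-like cells the striatum was instead the higher side, at 1.10 and 1.65 times the rest in the young and 1.36 and 1.18 times in the aged sections.

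Nadk in astrocyte-like cells was nearly even. Over dorsal striatum, ventral striatum, white matter, midline and the outer part of the section it ranged from 25.7 to 39.4, and dorsal over ventral was 1.09, 0.845, 0.984 and 0.985 in Young 1, Young 2, Aged 1 and Aged 2. Vascular-like cells had less Nadk in the striatum than elsewhere, at 0.717 to 0.769 of the rest in the 4 sections. Medium spiny neuron-like cells had 11.03, 12.1, 10.4 and 11.1 in the dorsal and 12.7, 14.7, 14.6 and 13.0 in the ventral striatum of the same sections, with the ventral side higher in each.

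**Figure D3:**
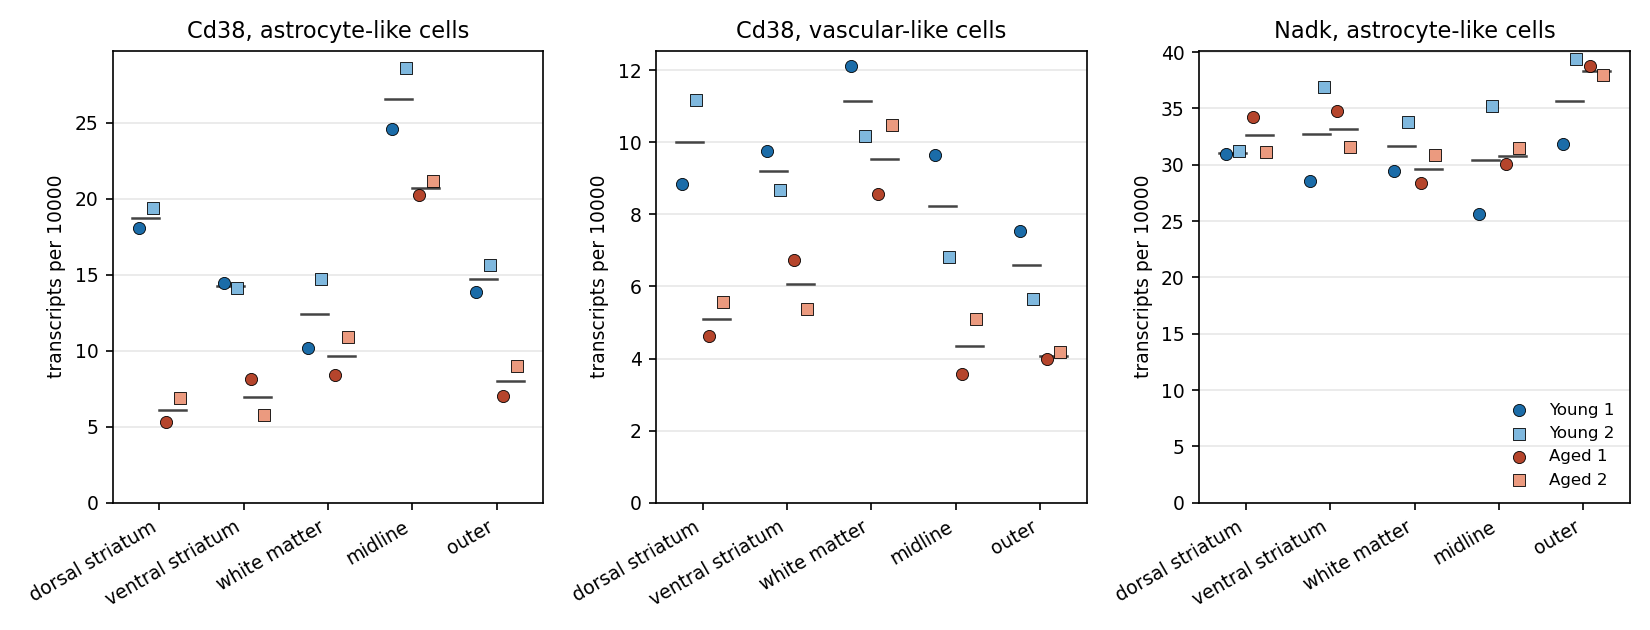
Level per 10000 transcripts of Cd38 in astrocyte-like cells, Cd38 in vascular-like cells and Nadk in astrocyte-like cells, by zone of the section; each point is a section and each bar the mean of an age. Cd38 in aged astrocyte-like cells is 5.31 and 6.88 in the dorsal striatum against 18.1 and 19.4 in the young, while Nadk overlaps between the ages in each zone.

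The lower Cd38 level with age was examined next. In astrocyte-like cells the mean was 18.0 ± 1.1 in the young and 10.8 ± 1.1 in the aged sections (SD, n = 2 each), 1.67 times higher in the young, or −0.74 on the log2 scale. In vascular-like cells it was 7.66 ± 1.3 in the young and 4.61 ± 0.27 in the aged sections, 1.66 times higher, or −0.73. The groups did not overlap in either class. The members were named for this difference, and no p is given for it. Among genes with a mean level of 1 or more per 10000, 24.7% (72 of 291) were lower in both aged sections in astrocyte-like cells and 22.7% (80 of 352) in vascular-like cells. There were 12 genes with a larger fall of the mean than Cd38 in astrocyte-like cells and 5 in vascular-like cells. Cd38 was not among the genes that edgeR's quasi-likelihood test called at an adjusted p under 0.05, which were 7 of 379 (1.85%) in astrocyte-like and 8 of 383 (2.09%) in vascular-like cells. Under 5 other settings, DESeq2 among them, Cd38 was called in astrocyte-like cells, and in vascular-like cells under none. Since Cd38 was chosen for this difference, nothing is read from its calls or from their absence.

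Other ways of counting also put both aged sections below both young ones. The share of astrocyte-like cells with a Cd38 transcript was 20.7% and 17.1% in the young and 9.25% and 11.8% in the aged sections, and with each cell thinned to 50 transcripts it was 7.83% and 8.36% against 4.64% and 5.37%. In oligodendrocyte-like cells, where Cd38 was below the mean of the 8 background genes, the unthinned share was 0.453% to 0.641%. The median was 103 to 171 transcripts per cell there, against 95 to 138 in astrocyte-like cells. Per 1000 µm³ of cell volume, astrocyte-like cells had 0.758 and 0.672 Cd38 transcripts in the young and 0.259 and 0.4002 in the aged sections. On this scale the median log2 difference of all tests was −0.46 rather than 0.01. In vascular-like cells the thinned share was 4.29% and 3.35% in the young and 2.10% and 2.47% in the aged sections. Some other values moved with age in astrocyte-like cells. The 8 background genes had a mean level of 0.904 and 0.602 per gene in the young and 0.489 and 0.415 in the aged sections, and the neuroblast markers summed to 84.4 and 111 in the young and 34.2 and 44.3 in the aged sections. Their part in the result was not tested. In astrocyte-like cells without any neuroblast marker, the Cd38 level was 19.1 and 19.6 in the young and 10.3 and 11.1 in the aged sections.

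The difference was wider in the striatum than near the midline. In striatal astrocyte-like cells the Cd38 level was 16.3 and 16.7 in the young and 6.84 and 6.35 in the aged sections, 2.50 times higher in the young, with 1 gene falling further and 14.1% of genes lower in both aged sections. In the dorsal striatum it was 3.07 times higher in the young (18.7 ± 0.95 against 6.09 ± 1.1, SD, n = 2 each), from 148, 122, 27 and 44 transcripts in Young 1, Young 2, Aged 1 and Aged 2. In the ventral striatum it was 2.06 times higher, at 14.5 and 14.1 in the young and 8.12 and 5.76 in the aged sections. The share of genes lower in both aged sections was 12.7% in the dorsal and 17.2% in the ventral striatum. Near the midline Cd38 went from 24.6 and 28.6 to 20.2 and 21.2, a 1.28-fold difference, in a zone where 22.1% of genes were lower in both aged sections. In the outer part of the section it went from 13.9 and 15.6 to 6.99 and 8.998 (1.84-fold, 23.7% of genes lower in both). In white matter, where 30% of genes were lower in both aged sections, the ages overlapped, with 10.2 and 14.7 in the young and 8.41 and 10.9 in the aged sections. Whether the change with age differed between these zones was not tested.

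In vascular-like cells the zones were more alike. In the striatum Cd38 was at 9.25 and 10.01 in the young and 5.63 and 5.50 in the aged sections, where 17.0% of genes were lower in both aged sections. The dorsal striatum went from 8.83 and 11.2 to 4.63 and 5.58 (20.5% of genes lower in both aged sections), the ventral striatum from 9.75 and 8.68 to 6.75 and 5.36 (17.4%), the midline from 9.66 and 6.82 to 3.58 and 5.11 (30.9%), and the outer part from 7.53 and 5.66 to 3.98 and 4.17 (16.5%). White matter again overlapped, with 12.1 and 10.2 in the young and 8.57 and 10.5 in the aged sections.

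Along the dorsal-ventral axis of the striatum, astrocyte-like cells were divided into 6 segments of 500 µm from the dorsal edge. Segment 6 also took in all cells deeper than 3000 µm. The extent of a striatal area ran from 2826 µm in Aged 1 to 3286 µm in Young 1, so this segment differs in size between sections. From segment 1 to segment 4 the Cd38 level was 14.3 to 22.7 in the young and 2.91 to 9.02 in the aged sections. The ages did not overlap in any of these segments. The values rest on 28 to 70 Cd38 transcripts per segment in a young section and 6 to 23 in an aged one. The share of all genes lower in both aged sections was not counted by segment. In segment 5 the Cd38 level was 13.9 and 9.54 in the young and 5.75 and 4.46 in the aged sections, from 48, 22, 14 and 9 transcripts. In segment 6, the most ventral, the young sections had 7.81 and 7.62 and the aged ones 10.7 and 2.52, from 18, 10, 14 and 3 transcripts, and the ages overlapped. Nadk ranged from 24.6 to 40.4 over the same segments. Its ages overlapped in each segment but the second, where the aged sections were higher (34.9 and 35.9 against 31.4 and 24.6).

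**Figure D4:**
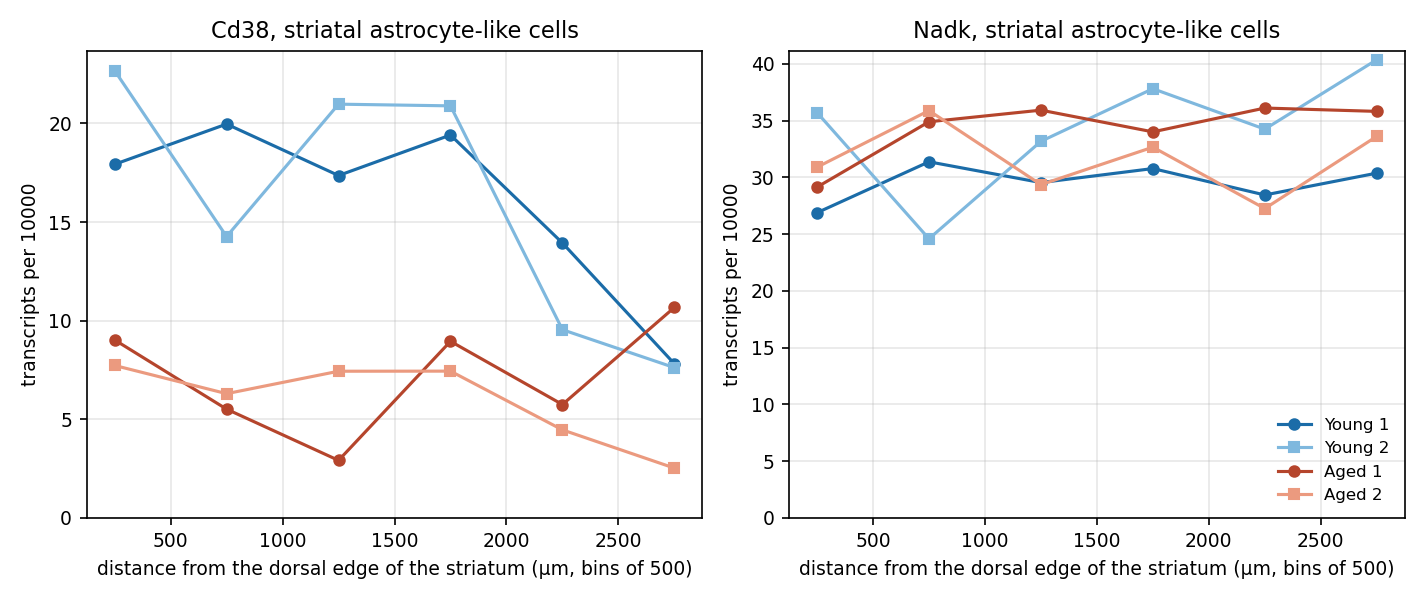
Level of Cd38 and Nadk per 10000 transcripts in striatal astrocyte-like cells by distance from the dorsal edge of the striatum in µm, in steps of 500 µm. The last step also holds all deeper cells. Each line is a section. The young lines for Cd38 lie above the aged ones over segments 1 to 5 and meet them in segment 6, and the Nadk lines cross.

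Cd38 was also compared between subsets of astrocyte-like cells. Cells without Gfap, the filament gene of reactive and white matter astrocytes, had 16.1 and 18.0 in the young and 8.14 and 9.20 in the aged sections. Cells with at least 3 Gfap transcripts had 16.1 and 19.2 in the young and 10.7 and 14.1 in the aged sections. The ages did not overlap in either subset. Cells with at least 75 and fewer than 150 transcripts, which hold depth nearly equal, had 16.6 and 17.7 in the young and 10.4 and 11.2 in the aged sections, and cells without vascular markers had 16.2 and 17.5 in the young and 10.5 and 11.2 in the aged sections. Cells with at least 2 neuroblast markers were the exception, with 7.86 and 6.06 in the young and 6.92 and 7.37 in the aged sections, from 15 to 57 transcripts. The share of all genes lower in both aged sections was not counted in these subsets. It was 24.7% in all astrocyte-like cells.

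For Nadk the ages were compared by test in all 7 classes, and it was not called in any by edgeR or DESeq2, with a lowest unadjusted p of 0.260 by edgeR. In the 5 classes not yet counted, edgeR called 9.82% of genes in precursor-like, 1.98% in microglia-like and 10.5% in oligodendrocyte-like cells, and 0 of 383 in each neuron class (0.0%; 17 genes in neuron-like and 30 in medium spiny neuron-like cells had an unadjusted p under 0.05, and DESeq2 called 1 and 0). The fitted log2 difference, aged minus young, in astrocyte-like cells was 0.06 with a 95% interval of −0.30 to 0.42 (edgeR adjusted p = 0.918). In vascular-like cells it was −0.06 with an interval of −0.46 to 0.35 (edgeR adjusted p = 0.934). The lowest estimate was −0.24 in oligodendrocyte-like cells, with an interval of −0.67 to 0.18 (edgeR adjusted p = 0.550), and the estimates in the other 4 classes lay between −0.01 and 0.01. Young and aged sections overlapped in every class. The intervals do not show that Nadk was equal at both ages, but in astrocyte-like cells the interval leaves out a change as large as −0.74, that of the Cd38 mean. Within single zones, Nadk in vascular-like cells was lower in both aged sections in white matter (16.9 and 18.4 against 9.73 and 16.1) and near the midline (18.8 and 23.2 against 15.6 and 17.8), where 21.3% and 30.9% of genes were lower in both.

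Cd38 was also tested in the 5 classes with low levels, with 6 to 28 transcripts per section in the 3 glial ones. It was not called in any by edgeR or DESeq2, with a lowest unadjusted p of 0.386 by edgeR. Its log2 difference was −0.41 in precursor-like cells (95% interval −1.37 to 0.54, edgeR adjusted p = 0.623) and −0.43 in microglia-like cells (−1.48 to 0.61, edgeR adjusted p = 0.664). In oligodendrocyte-like and neuron-like cells it was −0.01 in each, and in medium spiny neuron-like cells 0.14 (edgeR adjusted p = 0.980).

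Because Cd38 was found in astrocyte-like and vascular-like cells alike, astrocyte-like cells within 20 µm of a vascular-like cell were compared with those more than 40 µm away, within each section. Near cells had a Cd38 level of 15.04 and 18.5 in the young and 7.86 and 9.71 in the aged sections, and far cells had 17.3 and 18.3 in the young and 10.7 and 12.3 in the aged sections. The log2 difference, near minus far, was −0.20 (95% interval −0.41 to 0.02, edgeR adjusted p = 0.237) and was not called. For Nadk it was 0.03 (−0.12 to 0.18, edgeR adjusted p = 0.850). Aqp4, whose product lines the astrocyte endfeet on vessels, was higher in near cells by 0.44 (edgeR adjusted p = 0.000858), and 9.88% of 344 genes were called in either direction. Distances were taken to all vascular-like cells, with mixed cells and the subclusters rich in Aqp4 among them. The Aqp4 difference therefore cannot show that near cells lay at vessels.

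The panel held 12 other genes of NAD metabolism or NAD use. Nampt makes the precursor of NAD in the salvage pathway, Bst1 cleaves NAD like Cd38, Sirt2 to Sirt7 encode sirtuins, deacylases that consume NAD, and Parp9, Parp12, Parp14 and Tiparp belong to the ADP-ribosyltransferase family. Of 83 tests of these genes with age over the 7 classes, 2 were called by edgeR (4 had an unadjusted p under 0.05), both lower in aged sections, against 1.77% lower and 3.66% in either direction of the 2598 tests of all genes, and DESeq2 called 1. None of the 12 was called by edgeR or DESeq2 in astrocyte-like or vascular-like cells, and of these 24 edgeR tests 1 had an unadjusted p under 0.05 (Parp14 in astrocyte-like cells, 0.0489). Their median log2 difference was −0.16 in astrocyte-like cells, where that of all genes was −0.03, and −0.21 in vascular-like cells, where that of all genes was 0.01.

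Both calls were of Sirt2, which encodes a cytosolic sirtuin abundant in myelinating cells. In oligodendrocyte precursor-like cells its level was 249 and 249 in the young and 75.6 and 112 in the aged sections, a log2 difference of −1.48 (95% interval −1.86 to −1.10, edgeR adjusted p = 1.02e-07). In oligodendrocyte-like cells it was 87.0 and 112 in the young and 52.2 and 82.3 in the aged sections, or −0.68 (edgeR adjusted p = 0.00960), a call that DESeq2 did not make and that edgeR did not make without Young 2 (−0.47) or without Aged 1 (−0.41). The oligodendrocyte marker list, summed, also moved in precursor-like cells, from 343 and 320 in the young to 134 and 114 in the aged sections, and in the same cells the astrocyte markers went from 279 and 323 to 424 and 535. Their part in the Sirt2 result was not tested.

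**Figure D5:**
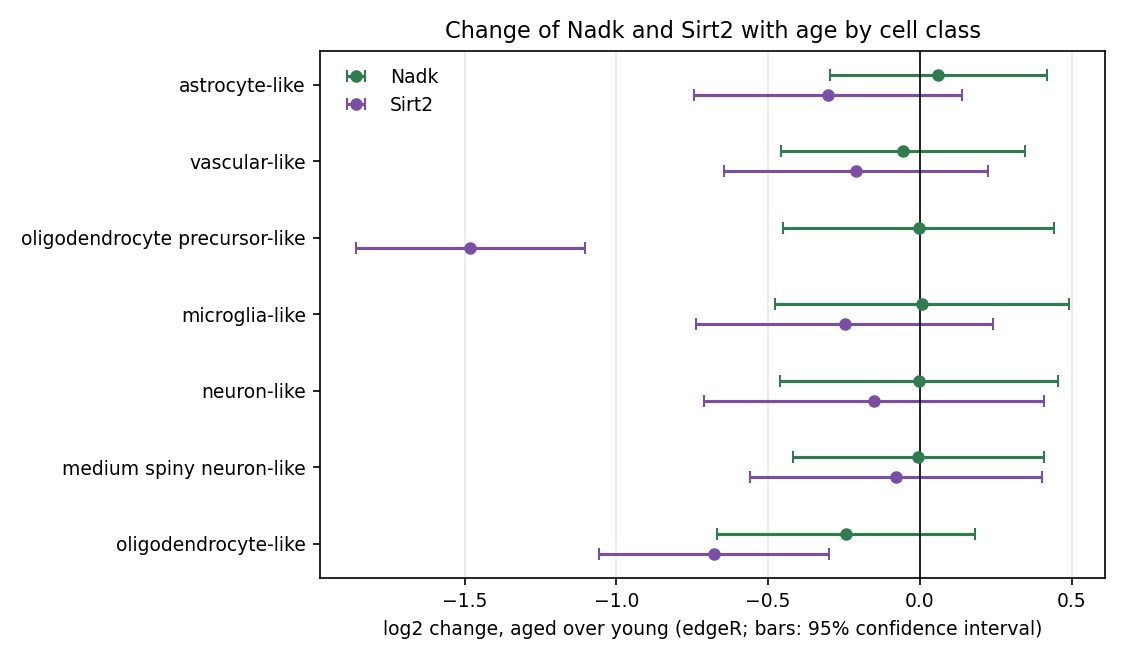
Log2 difference with age (aged minus young) of Nadk and Sirt2 fitted by edgeR in each cell class; points are estimates and lines 95% intervals. The Nadk intervals all include 0, and the Sirt2 intervals exclude 0 in oligodendrocyte precursor-like (−1.86 to −1.10) and oligodendrocyte-like cells (−1.06 to −0.30).

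Among the other members of the list, Nampt had a level of 39.2 to 55.0 in vascular-like cells and 11.7 to 15.3 in astrocyte-like cells, the reverse of the order of Cd38 in these classes. Tiparp was highest in astrocyte-like cells, at 27.3 and 35.0 in the young and 39.3 and 37.0 in the aged sections, and lay between 4.23 and 19.0 in the other classes. Bst1, the neighbour of Cd38, was at 0.283 to 0.945 in astrocyte-like cells and 0.714 to 1.07 in vascular-like cells, within or under the range of the 8 background genes, and reached 1.40 to 2.32 in medium spiny neuron-like cells. Parp14 in astrocyte-like cells was 1.16 and 1.51 in the young and 2.29 and 1.92 in the aged sections, with a log2 difference of 0.65 that was not called (edgeR adjusted p = 0.379).

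The genes whose levels over the 7 classes in 4 sections were most like those of Cd38 were Vcam1, Pdgfrb and Aqp4, with Pearson correlations of 0.95 over 28 points. Vcam1 encodes an adhesion molecule, and Pdgfrb a growth factor receptor of mural cells. Those most like Nadk were Dio2 (0.93), which activates thyroid hormone, Prdx6 (0.92), a peroxidase, and Slc6a11 (0.92), a GABA transporter of astrocytes. The correlation between Cd38 and Nadk themselves was 0.79. The points share 4 sections and their depth, so these values only describe the similarity of the patterns.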

How the data were processed

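The authors imaged the sections with a probe library for 383 genes, decoded transcripts with MERLIN v.0.1.6 and segmented cells; the deposited counts are whole decoded transcripts per gene and cell, with no filter and no normalization. The authors also deposited each cell's volume, an imaging signal in µm³, and its position, and a table of mean transcripts per cell, used here only to check the reading of the counts. Sections follow the sample titles, which for the young sections differ in number from a label column within the tables.

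Cells with at least 10 genes and 50 µm³ were kept, as in the study's methods. No doublet caller was run; mixed cells were left out as described, and sections shared no cell identifiers. Clusters (Python 3.11.15, igraph 0.11.9; 15 components, 20 neighbours, Louvain resolution 0.08) were named from marker lists. The striatum was taken as areas where at least 40% of the cells within 150 µm were medium spiny neuron-like, and was halved along its dorsal-ventral extent. Counts summed per class and section were tested with edgeR 4.0.16 in R 4.3.3 (TMM, filterByExpr, quasi-likelihood, Benjamini-Hochberg over all genes of a class, threshold 0.05). The near and far comparison had the section as a block. For age, the total degrees of freedom ran from 11.2 in medium spiny neuron-like to 766 in vascular-like cells. The p-values and intervals thus rest mainly on spread pooled over genes, not on a gene's own 4 sections. DESeq2 1.42.0 was an alternative. The scripts were tested on simulated data. Both genes and all lists were chosen with earlier results of these data known. Named are both genes, the 12 other NAD genes, 3 genes most alike in pattern (log2 of the level plus 0.05) and 8 background genes; Aqp4 and Gfap served as reference. Gene coordinates come from the GENCODE annotation. With 2 sections against 2, an exact permutation test cannot go below p = 0.333 and was not used.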

Additional observations from a re-analysis of the deposited data

Results flagged for a closer look

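By mean level, the change of Cd38 with age went in different directions between classes, without a test of that difference. On the log2 scale of the mean levels, both aged sections were below both young ones in astrocyte-like (−0.74), vascular-like (−0.73) and microglia-like cells (−0.29). They were above both in medium spiny neuron-like cells (0.13). By edgeR, Cd38 was called in neither microglia-like (unadjusted p = 0.410) nor medium spiny neuron-like cells (0.638). The share of all genes that separated in these ways was not counted there. In medium spiny neuron-like cells the sign also varied with the scale. The log2 difference was −0.38 per cell and −0.39 for the share of cells with a transcript. It was 0.13 for this share with each cell thinned to 50 transcripts. Cd38 was above the mean of the background genes in 3 of 4 sections of microglia-like cells and below it in all 4 of medium spiny neuron-like cells, and in the latter the fitted value turned to −0.22 with mixed cells kept and to −0.35 with cell volume as the offset.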

How the results depend on the processing

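Leaving out 1 section at a time, Cd38 kept its lower level with age in astrocyte-like (fitted log2 −0.84 to −0.66) and vascular-like cells (−0.85 to −0.57). With volume as the offset both were −1.12, beside a shift of the median of all tests from 0.01 to −0.46. Alternatives chosen after seeing the data gave −0.86 in astrocyte-like cells without neuroblast markers, −0.94 outside the midline, −0.97 without Gfap and −0.51 with 3 or more Gfap transcripts (−0.74 in all, from mean levels). Nadk was called under no alternative, but estimates near 0 changed sign: with volume as the offset, −0.32 in astrocyte-like and −0.36 in microglia-like cells; with mixed cells kept, 0.00074 in vascular-like, 0.014 in precursor-like, 0.016 in neuron-like and 0.011 in medium spiny neuron-like cells; by DESeq2, −0.062 in microglia-like and 0.013 in medium spiny neuron-like cells; with no filter −0.011 and with at least 50 transcripts per cell −0.079 in microglia-like cells; at a cluster resolution of 0.3, 0.0073 in neuron-like cells; and with near within 15 and far beyond 30 µm, −0.039. Without 1 section, Nadk ranged from −0.066 to 0.23 in astrocyte-like, −0.24 to 0.13 in vascular-like, −0.18 to 0.15 in precursor-like, −0.12 to 0.072 in microglia-like, −0.19 to 0.20 in neuron-like and −0.14 to 0.17 in medium spiny neuron-like cells, and from −0.029 to 0.084 for near against far. Cd38 became 0.31 in neuron-like cells at resolution 0.3, where the class is smaller, 0.013 with at least 50 transcripts, and −0.35 (volume) and −0.22 (mixed kept) in medium spiny neuron-like cells. Without 1 section it spanned −0.15 to 0.10 in oligodendrocyte-like and −0.14 to 0.10 in neuron-like cells.

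The replicate numbers did not pair the sections: deviations of same-numbered sections correlated at −0.44 to 0.04. With the replicate number as a block, edgeR called 15, 2, 24, 3 and 10 genes in astrocyte-like, vascular-like, precursor-like, microglia-like and oligodendrocyte-like cells (7, 8, 33, 7 and 40 without it), none in both neuron classes, and 1 NAD gene. Under the block Sirt2 in oligodendrocyte-like cells (−0.69) was no longer called, and Nadk was 0.0049 in precursor-like, 0.012 in neuron-like and 0.00027 in medium spiny neuron-like cells. With crossed numbers, chosen after seeing the data, 1, 9, 40, 21, 57, 0 and 20 genes were called in the same 5 classes, neuron-like and medium spiny neuron-like cells, and Nadk was 0.0052, 0.012 and 0.00038 in the same 3 classes. 

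Counts of called genes moved otherwise as follows. DESeq2 called 15 in astrocyte-like, 18 in precursor-like, 17 in microglia-like, 25 in oligodendrocyte-like and 1 in neuron-like cells, 1 NAD gene and 21 for near against far. No filter gave 14 in astrocyte-like cells. Volume as offset gave 20 in astrocyte-like, 1 in vascular-like, 0 in microglia-like and 1 in medium spiny neuron-like cells. Mixed cells kept gave 0 in vascular-like, 5 in precursor-like, 1 in microglia-like and 7 in oligodendrocyte-like cells, 1 NAD gene and 80 for near against far. Resolution 0.3 gave 0 in astrocyte-like and 19 in precursor-like cells, and at least 50 transcripts gave 17 and 21. The narrower distances gave 59. Without 1 section the counts were 0 to 14, 0 to 9, 6 to 27, 1 to 30, 17 to 29, 0 and 0 to 2 in the 7 classes, 1 to 2 NAD genes and 7 to 41 for near against far (34 with all sections). Sirt2 in oligodendrocyte-like cells was −0.71 by DESeq2 and −0.51 with mixed cells kept, no longer called.

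Ratios between classes also moved. Cd38 in astrocyte-like over vascular-like cells (mean 2.37) was 2.02 with mixed cells and 2.71 at resolution 0.3; over neuron-like cells, whose Cd38 is near background (21.1), it was 12.8 per volume, 12.4 and 39.1; vascular-like over neuron-like cells (9.01) it was 5.12, 6.18 and 14.2. Nadk in astrocyte-like over medium spiny neuron-like cells (2.64) was 1.59 per volume and 2.34 with mixed cells. The cause was not tested for any of these. With the striatum set at 50%, the zone ratios averaged over all sections moved by less than the spread of the 4 sections. Within an age some moved by more: Cd38 dorsal over ventral in young astrocyte-like cells went from 1.31 ± 0.090 to 1.51 ± 0.053, and Nadk dorsal over ventral in aged vascular-like cells from 0.893 ± 0.00080 to 0.816 ± 0.0039 (SD, n = 2). The low levels of Cd38 outside astrocyte-like and vascular-like cells limit what can be said there.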
